A study of Mus musculus with 16 samples.

Results

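The 30 genes described here are Ppara, the gene of the nuclear receptor PPAR alpha, together with targets of that receptor and enzymes of fatty acid oxidation in the liver. They were listed by symbol, and the array probes were found through the RefSeq accession that the array's design gives for each probe. All 30 had a probe, among 25801 features that could be tested, of which 15253 carried a gene symbol. Liver RNA came from 16 male ApoE KO mice, which lack apolipoprotein E and carry cholesterol-rich lipoproteins in the blood, with a stated age of 8 weeks and on a high-fat diet. In 8 of them (miR-185-inh) a lentivirus carried an antisense sequence against the microRNA miR-185, and the other 8 (ctrl-inh) received a control inhibitor. Livers were taken after 8 weeks. Both groups share the ApoE deletion and the diet, so no liver of a wild-type or normally fed mouse stands beside them. The labels do not say which cells of the liver the lentivirus reached. They number the mice without stating that each sample is a separate animal, so the p-values measure only the spread between these samples.

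PPAR alpha is a receptor for fatty acids that pairs with the retinoid X receptor RXR and raises transcription of genes for fatty acid uptake, activation and oxidation, most strongly in liver during fasting. Long fatty acids enter mitochondria through the carnitine shuttle and are then shortened by beta-oxidation, while very long chains are first shortened in peroxisomes and a smaller share is hydroxylated at the far end by the Cyp4a enzymes of the endoplasmic reticulum. In rodents the Cyp4a enzymes, the peroxisomal enzymes and several acyl-CoA thioesterases are known for their strong response to PPAR alpha ligands. PPAR alpha with RXR binds a pair of AGGTCA-type half-sites with 1 base between them.

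That pair of half-sites, searched as AGGTCANAGGTCA on both strands and allowing mismatches at the 12 fixed bases, was looked for in the RefSeq promoter windows of mouse build GRCm38.p6, each 300 bases long with 250 bases before the annotated start. Of the 30 genes, 24 had such a window. The 6 without one, Acaa2, Angptl4, Cyp4a10, Cyp4a14, Cyp4a31 and Vnn1, were not searched. At most 2 mismatches were found in 3.86% of all 32851 windows and in 4 of the 27 windows of these genes, those of Fabp1, Plin2, Creb3l3 and Slc25a20, and the Slc25a20 match lay after the start. The stretches of the other 3 are shown because they hold the closest matches upstream of a start among the 24 genes with a window. Each is given on the strand of its gene, 5′ to 3′, with the 13 bases of the match in capitals.
Fabp1, chr6:71199804-71199832, + strand, 1 mismatch: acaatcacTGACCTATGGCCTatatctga
Creb3l3, chr10:81092780-81092808, - strand, 2 mismatches: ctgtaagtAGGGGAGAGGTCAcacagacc
Plin2, chr4:86670264-86670292, - strand, 2 mismatches: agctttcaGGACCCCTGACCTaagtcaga
The Fabp1 and Plin2 matches read as the motif on the opposite strand, AGGCCATAGGTCA and AGGTCAGGGGTCC. The match began 67 bases before the start in Fabp1, 209 in Creb3l3 and 225 in Plin2. A match of letters is a description and no measured binding site.

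Every array was a 1-colour Agilent mouse array, and levels are given as log2 of a probe's signal relative to the 75th percentile of its own array, called log2 relative signal below. All miR-185-inh arrays lay on one slide with its own scan and all ctrl-inh arrays on another, so treatment cannot be told apart from slide and scan. The number of arrays limits the precision. Between arrays the values correlated with r from 0.984 to 0.996. The hepatocyte genes Alb, Ttr and Cps1 were well above background on all 16 arrays, while the muscle gene Ckm and the brown fat gene Ucp1 were well above it on none. The threshold for the markers is a limma adjusted p under 0.05, which 4.74% of all features passed. Of 7 striated muscle markers 4 were measured, all below 0 and none past the threshold, with summed levels of 0.196 to 0.403 in miR-185-inh and 0.262 to 0.474 in ctrl-inh livers, as signal relative to the 75th percentile. Of 6 kidney tubule markers 2 were measured, both below 0 and none past the threshold. Their summed levels were 0.0587 to 0.0755 in miR-185-inh and 0.0582 to 0.0832 in ctrl-inh livers. The fat cell gene Adipoq was measured on all 16 arrays, at a median log2 relative signal of 0.41 in miR-185-inh and 0.36 in ctrl-inh livers. Of 7 fat cell markers 4 were measured, with group differences above 0 for 2 and below 0 for 2, none past the threshold. Plin1, Lep and Ucp1 were not measured. The summed levels of the 4, as signal relative to the 75th percentile, were 6.42 to 15.3 in miR-185-inh and 5.96 to 15.3 in ctrl-inh livers. On the same scale the sum over 12 hepatocyte markers ran from 442 to 596 in miR-185-inh and from 473 to 635 in ctrl-inh livers. All 9 neutrophil markers lay below 0, with summed levels of 1.99 to 12.6 in miR-185-inh and 4.20 to 15.2 in ctrl-inh livers, and 2 of them passed the test, the granule genes Ltf and Ngp, both lower in miR-185-inh livers (differences -1.97 and -1.22, limma adjusted p = 0.0239 and 0.0427; Ltf was well above background on 3 of the 8 miR-185-inh arrays). All 10 measured Kupffer cell and macrophage markers lay below 0 with none past the threshold (summed levels 64.7 to 115 in miR-185-inh and 84.7 to 128 in ctrl-inh livers). Their median difference was -0.42 in row 1 of the slides and 0.13 in row 2. Of 5 measured pancreatic acinar markers 3 lay below 0 and 1, Cel, passed (difference -0.48, limma adjusted p = 0.0170; summed levels of the 5 from 0.261 to 0.452 in miR-185-inh and from 0.273 to 0.519 in ctrl-inh livers). The part of these markers in the values below was not tested. In whole liver, fewer cells of a type and less RNA per cell cannot be told apart.

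None of the 30 genes differed between the groups by limma with Benjamini-Hochberg adjustment over all features at 0.05, where 4.74% of features did (1223 features, 903 of them lower and 320 higher). At an unadjusted limma p under 0.05 the count was also 0 of 30, beside 20.3% of features, and by the exact permutation test over the 6435 distinct splits of the mice into 8 and 8 it was 0 of 30, beside 20.6% of the features with all values. The lowest adjusted p among them was 0.271, for Acot3 and for Ppara. Differences were above 0 for 8 genes and below 0 for 22, with a median of -0.067 on the log2 scale, and over all features the median was -0.033 with 42.0% above 0. Every 95% interval covered 0, and for 26 genes the interval stayed within a 1.5-fold change in either direction. The 4 others were Acot2, Pdk4, Cyp4a14 and Fgf21. By the probe used, all 30 were well above background on all 16 arrays.

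**Figure D1:**
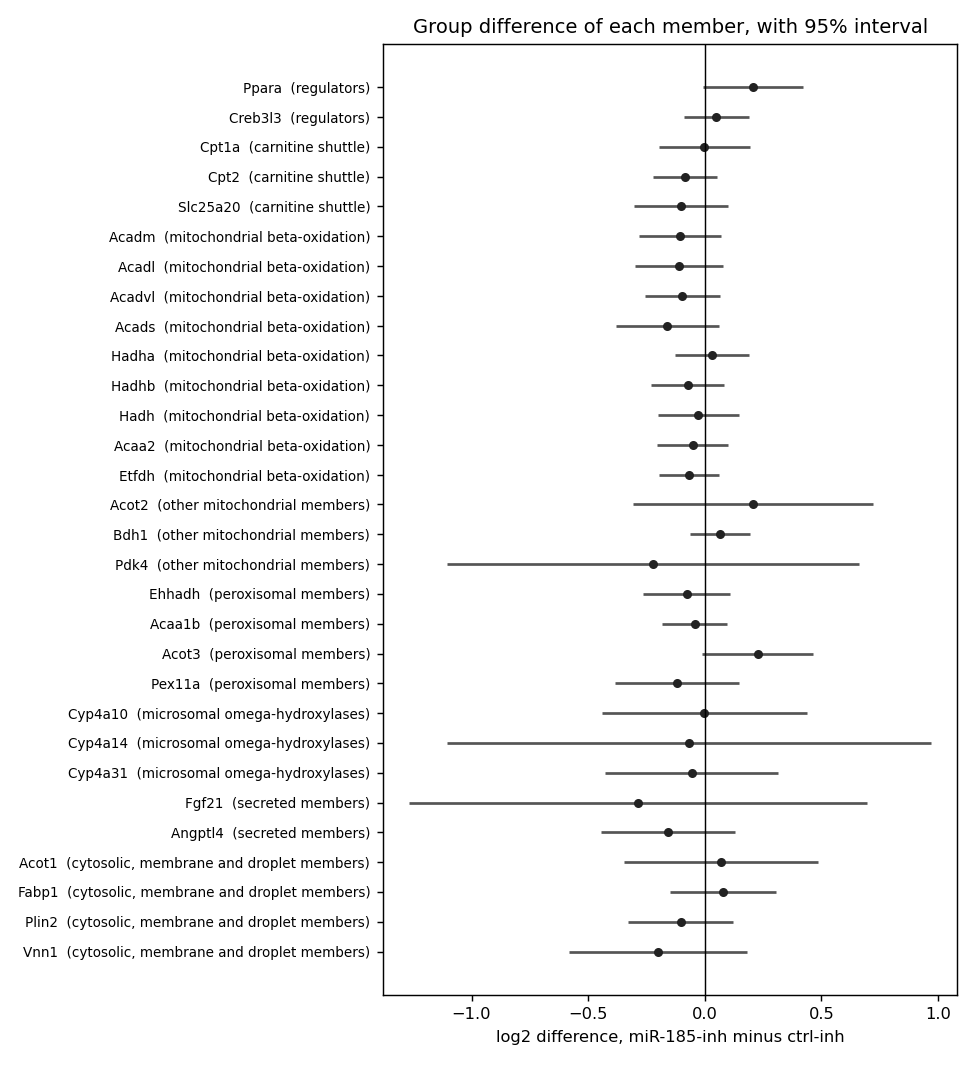
Log2 difference of each of the 30 genes, miR-185-inh minus ctrl-inh (points, 8 mice per group, 7 miR-185-inh mice for Fabp1), with the 95% interval of the limma fit (lines), grouped by role. All 30 intervals cross 0, and the widest belong to Fgf21, Cyp4a14 and Pdk4.

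The 2 transcriptional regulators both lay above 0. Ppara had log2 relative signals from 3.48 to 4.13 (median 3.83) in miR-185-inh livers, against 3.47 to 3.89 (median 3.56) in ctrl-inh livers. Mice 3, 6 and 9 of the miR-185-inh group lay above every ctrl-inh mouse, and the other 5 lay within the ctrl-inh range. The means were 3.84 ± 0.25 in miR-185-inh and 3.63 ± 0.15 in ctrl-inh livers (SD, n = 8 each), a ratio of 1.15 with a 95% interval of 0.994 to 1.34, and the difference of 0.21 missed the threshold (limma adjusted p = 0.271, exact permutation p = 0.0752). Its other 2 probes gave differences of 0.33 (exact permutation p = 0.0157) and 0.18 (exact permutation p = 0.159), so all 3 lay above 0 and 1 of them was below 0.05 before any adjustment. Within the slide rows the difference was 0.23 in row 1 and 0.18 in row 2. Without miR-185-inh mice 3 and 6, the pair with the lowest Arntl described below, it was 0.11. Creb3l3, a transcription factor of the endoplasmic reticulum that acts with PPAR alpha on Fgf21, differed by 0.050 (95% interval -0.090 to 0.19), with 5 of 8 miR-185-inh mice above the ctrl-inh mean.

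**Figure D2:**
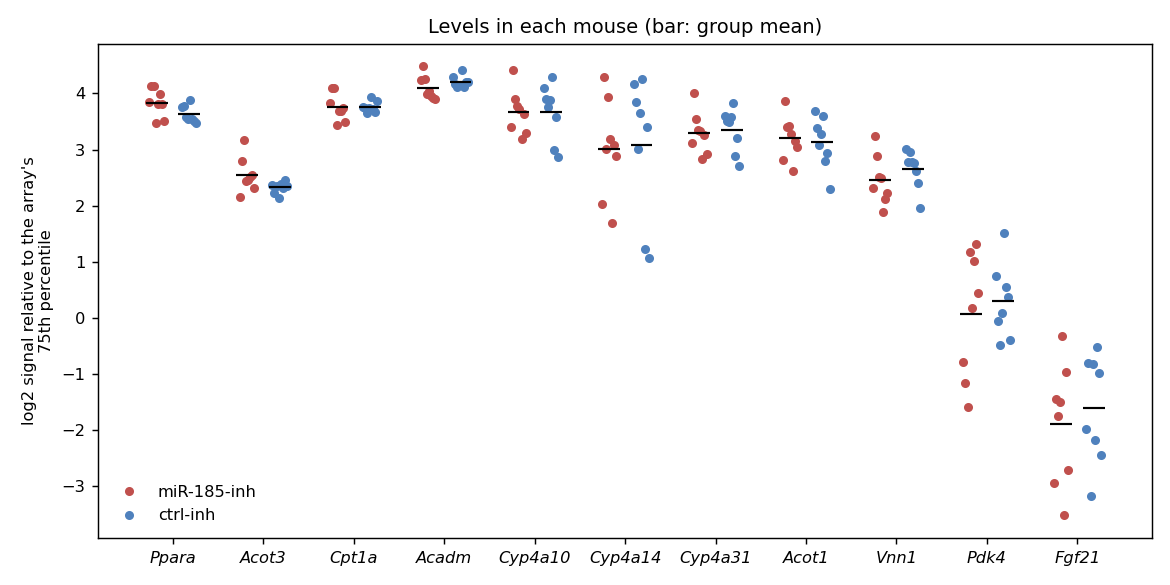
Log2 relative signal of 11 genes in each mouse (points), miR-185-inh left and ctrl-inh right of each pair, with the group mean (bar). The groups overlap in every gene shown. Each gene is read by its own probe, so heights are not compared between genes.

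The carnitine shuttle and the mitochondrial spiral of beta-oxidation, 12 genes, had a median difference of -0.079, with 11 of the 12 below 0. Over all features the median was -0.033. With normexp in place of the scanner's background correction the 12 genes were at -0.024, beside -0.024 over all features. Cpt1a, Acadl and Hadhb then lay above 0 (0.048, 0.083 and 0.082). With quantile normalization the 12 genes were at -0.071, beside -0.0030 over all features. Cpt1a, the enzyme that loads long-chain fatty acids onto carnitine and sets the rate of their entry, had log2 relative signals from 3.45 to 4.10 (median 3.71) in miR-185-inh livers and from 3.66 to 3.93 (median 3.75) in ctrl-inh livers. The miR-185-inh mice spread to both sides, with mice 3 and 6 above and mice 7 and 12 below the whole ctrl-inh range. The Cpt1a difference was -0.0017 (95% interval -0.20 to 0.19, limma adjusted p = 0.996). Cpt2, which releases the acyl group inside the mitochondrion, differed by -0.085, and Slc25a20, the carrier between them, by -0.10. The other Cpt1a probe gave 0.068 and the other Cpt2 probe -0.041.

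Among the acyl-CoA dehydrogenases, which carry out the first step of each round, Acads for short chains stood farthest from 0. Acads gave 1.91 to 2.67 (median 2.32) in miR-185-inh livers, against 2.27 to 2.73 (median 2.45) in ctrl-inh livers, a difference of -0.16 (95% interval -0.38 to 0.061, limma adjusted p = 0.424). Acadm, for medium chains, ran from 3.90 to 4.48 (median 4.02) in miR-185-inh and from 4.11 to 4.42 (median 4.19) in ctrl-inh livers. Of the miR-185-inh mice 5 lay below every ctrl-inh mouse in Acadm and mouse 3 lay above every one, so the ranges overlapped. The difference was -0.11 (95% interval -0.28 to 0.070, limma adjusted p = 0.516). For Acadl, for long chains, 6 miR-185-inh mice lay below the ctrl-inh range and mouse 3 above it. The Acadl values were 2.40 to 3.04 (median 2.57) in miR-185-inh and 2.67 to 3.02 (median 2.73) in ctrl-inh livers, a difference of -0.11 (95% interval -0.30 to 0.077, limma adjusted p = 0.525, exact permutation p = 0.224). Acadvl, for very long chains, differed by -0.097.

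The trifunctional protein subunits Hadha and Hadhb, which share the later steps for long chains, lay on either side of 0, with differences of 0.032 and -0.073. Hadh, the dehydrogenase of the third step for shorter chains, differed by -0.027, and Acaa2, the thiolase that splits off acetyl-CoA, by -0.051. Etfdh, which passes the electrons of the first step to the respiratory chain, differed by -0.067 and had one of the smallest spreads, with an SD within groups of 0.105 that was above that of only 6.75% of features. The 95% intervals of all 12 genes stayed within a 1.5-fold change.

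Arrays lay in 2 rows of 4 on each slide, and the 12 mitochondrial genes had a median difference of 0.039 in row 1 and -0.19 in row 2, against 0.0069 and -0.070 over all features. In row 2 the 30 genes together had a median of -0.14 and in row 1 of 0.030. The difference was higher in row 1 than in row 2 for 24 of the 30 genes. No gene of the 30 passed the test of treatment by row (lowest limma adjusted p = 0.190), where 0.376% of features did, and 2 had an unadjusted p under 0.05, beside 14.8% of features. Row 1 of the miR-185-inh slide held mice 1, 3, 6 and 7.

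The 3 further mitochondrial genes did not share a direction. Bdh1, which makes the ketone body beta-hydroxybutyrate, had 3.46 to 3.82 (median 3.54) in miR-185-inh livers and 3.43 to 3.66 (median 3.49) in ctrl-inh livers. The groups overlapped, and the difference was 0.066 (95% interval -0.061 to 0.19, limma adjusted p = 0.588), one of the narrowest intervals among the 30. With normexp in place of the scanner's background correction it was 0.26 and passed (limma adjusted p = 0.0350), the single call of any of the 30 genes under the alternatives tried. Its other 2 probes gave -0.028 and 0.12. Acot2, a mitochondrial acyl-CoA thioesterase, ran from -2.78 to -1.44 (median -2.36) in miR-185-inh and from -3.37 to -1.73 (median -2.36) in ctrl-inh livers, with a difference of 0.21 and a wide 95% interval of -0.31 to 0.72.

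Pdk4, the kinase that shuts down pyruvate dehydrogenase when fat is burned, varied more between mice than 99.4% of features. It ran from -1.59 to 1.32 (median 0.31) in miR-185-inh livers, a 7.48-fold range, and from -0.48 to 1.52 (median 0.22) in ctrl-inh livers, a 3.98-fold range. Mice 1, 3 and 6 of the miR-185-inh group, at -0.79, -1.16 and -1.59, lay below every ctrl-inh mouse, while the other 5 lay inside the ctrl-inh range. The group difference was -0.22 (95% interval -1.10 to 0.66, limma adjusted p = 0.821). Slide row 1 gave -0.67, row 2 gave 0.23, and the fit without mice 3 and 6 gave 0.26.

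The same 3 mice lay outside the ctrl-inh range in the clock genes Arntl and Dbp. Arntl, which encodes the core clock activator BMAL1, was at 0.20 in miR-185-inh mouse 1, -1.94 in mouse 3 and -2.98 in mouse 6, and between 1.09 and 1.89 in the 5 remaining mice of that group, against 0.76 to 1.81 in the ctrl-inh mice. Dbp, a clock output gene that peaks when Arntl is low, was at 3.80, 4.35 and 4.35 in those 3 mice, and at 1.44 to 2.62 in the 5 remaining ones, against 0.83 to 2.57 in the ctrl-inh mice. The sources used here do not give the hour at which each liver was taken, and its part in the Pdk4 values was not tested. In Per1, another clock gene, mice 3 and 6 (1.64 and 2.87) lay above every ctrl-inh mouse, while mouse 1 (0.69) lay inside the ctrl-inh range, which reached 0.79. The group differences of Arntl (-1.03, limma adjusted p = 0.364) and Dbp (0.89, limma adjusted p = 0.321) missed the threshold.

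**Figure D3:**
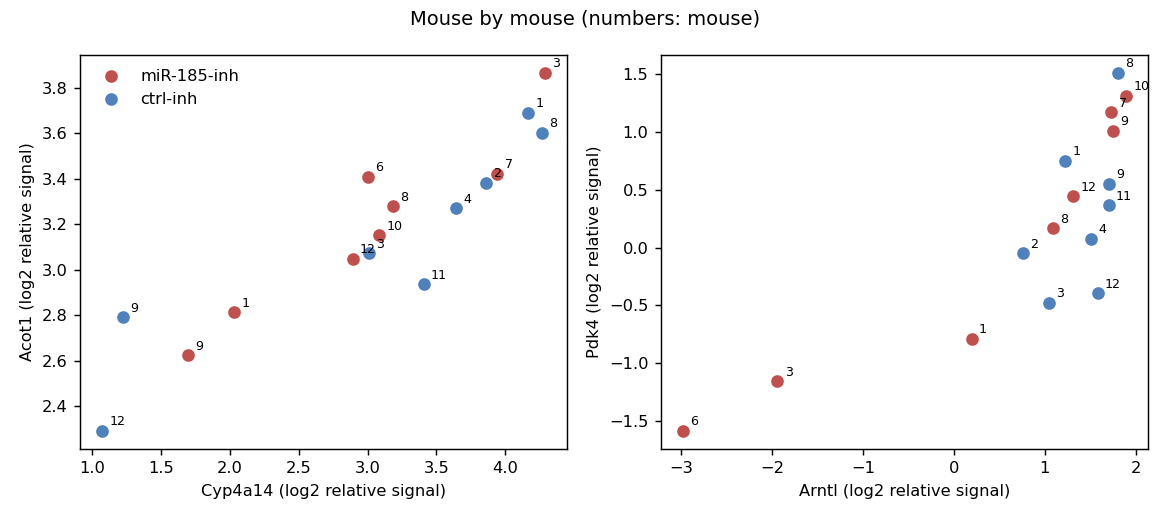
Left, log2 relative signal of Acot1 (y) against Cyp4a14 (x); right, Pdk4 (y) against Arntl (x), 1 point per mouse with its number, for miR-185-inh and ctrl-inh. Mice with high Cyp4a14 have high Acot1 in both groups, and miR-185-inh mice 1, 3 and 6 are the lowest of all 16 in both Arntl and Pdk4.

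Of the 4 peroxisomal genes 3 lay below 0, with a median difference of -0.061. Ehhadh, the bifunctional enzyme of the peroxisomal spiral, had 3.30 to 3.98 (median 3.64) in miR-185-inh livers and 3.54 to 3.89 (median 3.68) in ctrl-inh livers, with overlapping ranges and a difference of -0.078 (95% interval -0.26 to 0.11). Acaa1b, a peroxisomal thiolase, differed by -0.043, with every miR-185-inh mouse inside the ctrl-inh range. Pex11a, a membrane protein that promotes division of peroxisomes, ran from 3.30 to 4.38 (median 3.69) in miR-185-inh and from 3.64 to 4.07 (median 3.87) in ctrl-inh livers. Its difference was -0.12 (95% interval -0.38 to 0.15), with 4 miR-185-inh mice below and mouse 3 above the ctrl-inh range.

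Acot3, a peroxisomal acyl-CoA thioesterase, was the gene farthest above 0. It had 2.16 to 3.17 (median 2.49) in miR-185-inh livers, against 2.14 to 2.45 (median 2.35) in ctrl-inh livers. Mice 3 and 6, at 2.80 and 3.17, stood clear of all others, and 3 more miR-185-inh mice lay just above the ctrl-inh range. The ratio was 1.17 (95% interval 0.993 to 1.38), the difference of 0.23 had a limma adjusted p of 0.271 and an exact permutation p of 0.0542, and without mice 3 and 6 it was 0.081. The other Acot3 probe, well above background on only 9 arrays, gave 0.48 (exact permutation p = 0.600). Acot1, Acot2, Acot3 and their relative Acot5 are close copies in sequence, and how far each probe reads its relatives is not known from the files.

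Peroxisomal and mitochondrial genes were set against each other mouse by mouse, as the mean deviation of each gene set from the ctrl-inh mean. The peroxisomal minus mitochondrial value ran from -0.048 to 0.13 (median 0.099) in miR-185-inh livers and from -0.085 to 0.11 (median 0.0060) in ctrl-inh livers, and the groups overlapped. The peroxisomal mean is over 4 genes, and only Acot3 (0.23) had a group difference above 0. Ehhadh, Acaa1b and Pex11a were at -0.078, -0.043 and -0.12. The medians of the gene differences, -0.061 for 4 peroxisomal and -0.079 for 12 mitochondrial genes, were 0.018 apart. That gap changed sign with normexp (-0.031), in slide row 1 alone (-0.014) and without miR-185-inh mouse 7 (-0.0051). No test was made of it.

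The 3 omega-hydroxylases of the endoplasmic reticulum had a median difference of -0.056, and Cyp4a14 had the largest SD within groups of the 30 genes (1.08), followed by Fgf21 (1.02) and Pdk4 (0.918). Cyp4a14 ran from 1.70 to 4.29 (median 3.04) in miR-185-inh livers, a 6.03-fold range, and from 1.07 to 4.26 (median 3.53) in ctrl-inh livers, a 9.11-fold range. Low values occurred in both groups, in miR-185-inh mice 1 and 9 (2.03 and 1.70) and in ctrl-inh mice 9 and 12 (1.22 and 1.07). The means were 3.01 ± 0.86 in miR-185-inh and 3.08 ± 1.26 in ctrl-inh livers (SD, n = 8 each), a difference of -0.066 (95% interval -1.10 to 0.97, limma adjusted p = 0.961). The SD within groups was above that of 99.7% of features, so a 1.5-fold change of the mean lies well inside the interval.

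Cyp4a10 had 3.20 to 4.41 (median 3.68) in miR-185-inh livers and 2.86 to 4.29 (median 3.82) in ctrl-inh livers, with a difference of -0.0016 (95% interval -0.44 to 0.44). Its other 2 probes gave differences of 0.075 and 0.00082. Cyp4a31 had 2.83 to 4.0 (median 3.29) in miR-185-inh livers and 2.71 to 3.83 (median 3.50) in ctrl-inh livers, with a difference of -0.056 (95% interval -0.43 to 0.32). The other 2 Cyp4a31 probes gave -0.072 and 0.081. In both genes miR-185-inh mouse 9 was the lowest and mouse 3 the highest of its group, as in Cyp4a14. These are near-identical copies on the mouse genome, and cross-hybridisation between their probes cannot be told apart from shared variation. The 3 genes had a median difference of -0.036 in slide row 1 and 0.032 in row 2.

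Both secreted proteins lay below 0. Fgf21, a hormone that liver releases under PPAR alpha control, was between -3.52 and -0.32 (median -1.62) in miR-185-inh livers, a 9.21-fold range, and between -3.17 and -0.51 (median -1.49) in ctrl-inh livers, a 6.31-fold range. High and low mice occurred in each group, and the difference was -0.29 (95% interval -1.27 to 0.70, limma adjusted p = 0.788). Angptl4, an inhibitor of lipoprotein lipase, ran from 3.99 to 4.62 (median 4.23) in miR-185-inh and from 4.16 to 4.92 (median 4.27) in ctrl-inh livers. Ctrl-inh mice 2, 4 and 12 lay above every miR-185-inh mouse, and the difference was -0.16 (95% interval -0.44 to 0.13, limma adjusted p = 0.560).

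A last set of 4 genes acts in the cytosol, at the cell membrane or on lipid droplets. Acot1, a cytosolic acyl-CoA thioesterase, had 2.62 to 3.87 (median 3.22) in miR-185-inh livers and 2.29 to 3.69 (median 3.17) in ctrl-inh livers, with a difference of 0.072 (95% interval -0.34 to 0.49). Vnn1, a pantetheinase of the cell membrane, had 1.89 to 3.24 (median 2.40) in miR-185-inh livers and 1.95 to 3.01 (median 2.77) in ctrl-inh livers. Its difference was -0.20 (95% interval -0.58 to 0.18, limma adjusted p = 0.582), and -0.40 without miR-185-inh mice 3 and 6 (limma adjusted p = 0.151). Those 2 mice had the highest Vnn1 of their group. Fabp1, the fatty acid binding protein of the hepatocyte whose promoter stretch is given above, had 5.45 to 6.23 (median 5.78) in 7 miR-185-inh livers, since the spot of mouse 3 was marked as an outlier and left out, and 5.61 to 5.93 (median 5.77) in ctrl-inh livers. The miR-185-inh mice spread beyond the ctrl-inh range on both sides, and the difference was 0.078 (95% interval -0.15 to 0.30). Plin2, the coat protein of lipid droplets, had 4.04 to 4.40 (median 4.26) in miR-185-inh livers and 3.75 to 4.57 (median 4.44) in ctrl-inh livers, with a difference of -0.10 (95% interval -0.33 to 0.12). The lowest Plin2 value was that of ctrl-inh mouse 2, and every miR-185-inh mouse lay within the ctrl-inh range. Without ctrl-inh mouse 2 the Plin2 difference was -0.19 (limma adjusted p = 0.197), and miR-185-inh mice 6 and 7 lay below the remaining ctrl-inh mice.

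The median SD within groups over the 30 genes was 0.200, beside 0.209 over all features, and part of that spread was shared between genes. A set of 12 gene pairs was correlated within each group of 8, with exact permutation p-values over the 40320 pairings adjusted over the 24 correlations. Cyp4a10 and Cyp4a14 correlated with r = 0.84 in miR-185-inh livers (rho 0.83, exact p = 0.00826, adjusted p = 0.0661) and with r = 0.97 in ctrl-inh livers (rho 0.98, exact p = 0.000471, adjusted p = 0.0113). Leaving out the 2 mice farthest from the median gave 0.58 in miR-185-inh and 0.85 in ctrl-inh livers. Cyp4a14 and the peroxisomal Ehhadh correlated with r = 0.81 in miR-185-inh livers (rho 0.86, exact p = 0.0176, adjusted p = 0.0845) and with r = 0.85 in ctrl-inh livers (rho 0.98, exact p = 0.00367, adjusted p = 0.0440), a call that ended with normexp (r = 0.82, exact adjusted p = 0.0750). Without the 2 farthest mice r was 0.38 in miR-185-inh and 0.95 in ctrl-inh livers. Those left out of the miR-185-inh group, mice 3 and 9, held its highest and lowest Cyp4a14, so the range left was narrower.

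Between Cyp4a10 and Ppara r was 0.44 in miR-185-inh livers (rho 0.33, exact adjusted p = 0.522) and 0.78 in ctrl-inh livers (rho 0.86, exact adjusted p = 0.0925). Neither passed the threshold. Cpt1a and Pdk4 ran against each other in miR-185-inh livers (r = -0.83, rho -0.71, exact p = 0.0130, adjusted p = 0.0781) and with each other in ctrl-inh livers (r = 0.46, rho 0.45, exact adjusted p = 0.522), and the difference between these correlations was not tested. Without mice 3 and 6 the miR-185-inh value was -0.47. Hadha and Hadhb, whose genes lie head to head and whose proteins form 1 complex, correlated weakly (r = 0.15, rho 0.12 in miR-185-inh and r = 0.11, rho -0.095 in ctrl-inh livers, exact adjusted p = 0.820 and 0.863). The remaining 7 pairs had exact adjusted p-values of 0.122 or more in both groups.

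**Figure D4:**
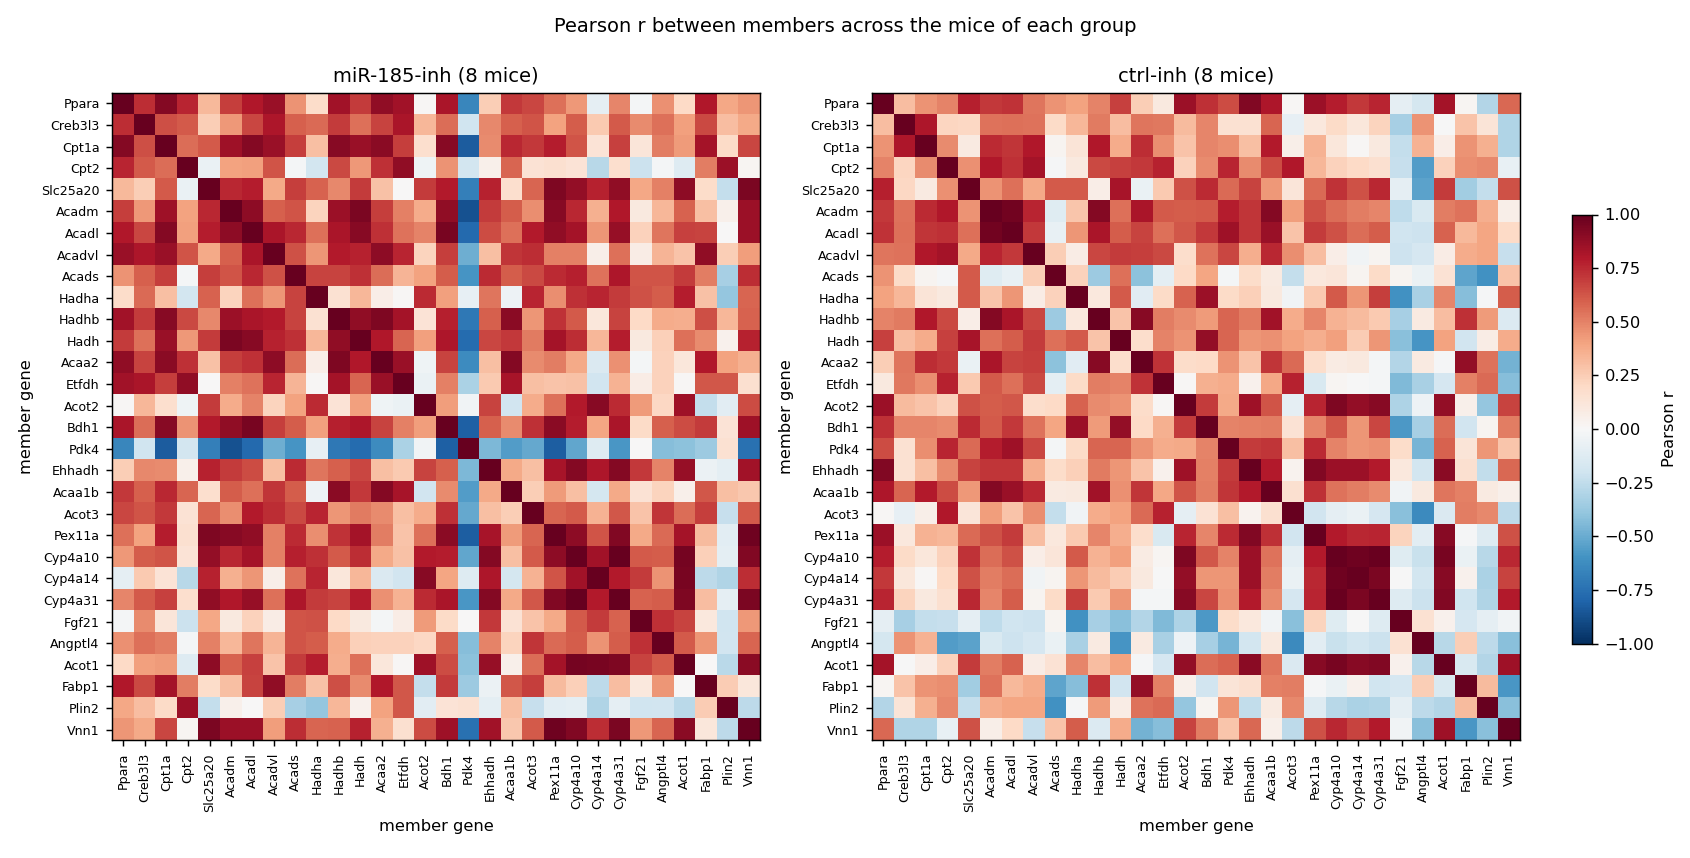
Pearson r between every pair of the 30 genes across the 8 mice of the miR-185-inh group (left) and of the ctrl-inh group (right), both axes listing the genes by role, red for positive and blue for negative. A block of Cyp4a10, Cyp4a14, Cyp4a31 and Acot1 is dark red in both panels, and the Pdk4 row is mostly blue in the left panel and mostly red in the right one.

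As a description over all 435 pairs of the 30 genes, the median r was 0.55 in miR-185-inh and 0.37 in ctrl-inh livers, and over pairs of all features 0.038 in miR-185-inh and 0.064 in ctrl-inh livers. Brightness is shared with it: among 5077 features at least as bright as the dimmest of the 12 mitochondrial genes the median r was 0.41 in miR-185-inh and 0.42 in ctrl-inh livers. After quantile normalization that bright background was 0.0017 in miR-185-inh and 0.0048 in ctrl-inh livers, while the 30 genes were at 0.50 in both groups. The brightness cut was set by the mitochondrial genes, and Acot2, Pdk4 and Fgf21 among the 30 lie below it. The 12 mitochondrial genes had a median r of 0.64 in miR-185-inh and 0.58 in ctrl-inh livers after the same normalization, and the 3 omega-hydroxylases of 0.91 and 0.97. All pairs within a group share the same 8 mice.

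The correlations of Cyp4a14 and of Acadl with other genes are given side by side, with no test of their differences. Cyp4a14 went with Acot1 (r = 0.95 in miR-185-inh and 0.91 in ctrl-inh livers) and Acot2 (r = 0.91 in miR-185-inh and 0.88 in ctrl-inh livers), and hardly with Acadvl (r = 0.058 in miR-185-inh and -0.034 in ctrl-inh livers) or Cpt1a (r = 0.13 in miR-185-inh and 0.015 in ctrl-inh livers). Acadl went with Acadm (r = 0.90 in miR-185-inh and 0.96 in ctrl-inh livers) and Cpt1a (r = 0.92 in miR-185-inh and 0.72 in ctrl-inh livers). Some genes went with both: for Cyp4a10 r with Acadl was 0.83 in miR-185-inh and 0.64 in ctrl-inh livers, for Acot1 0.69 in miR-185-inh and 0.59 in ctrl-inh livers, and for Ehhadh 0.65 in miR-185-inh and 0.71 in ctrl-inh livers. Pex11a correlated with Cyp4a14 at 0.63 in miR-185-inh and 0.76 in ctrl-inh livers, and with Acadl at 0.89 in miR-185-inh and 0.70 in ctrl-inh livers. Plin2 followed neither, with r between -0.32 and 0.39 in all 4 cases.

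Single mice carried several of these genes at once. In the miR-185-inh group mouse 3 was the highest of the 8 in 18 of the 30 genes, mouse 6 in 6, and mouse 12 was among the 2 lowest in 19. In the ctrl-inh group mouse 8 was the highest in 22. After quantile normalization mouse 3 was the highest in 21, and ctrl-inh mouse 8 in 9. Ctrl-inh mouse 8 also had the highest sum of hepatocyte markers of the 16 (635), and miR-185-inh mouse 3 one of the lower sums (465). The part of these in the levels was not tested.

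**Figure D5:**
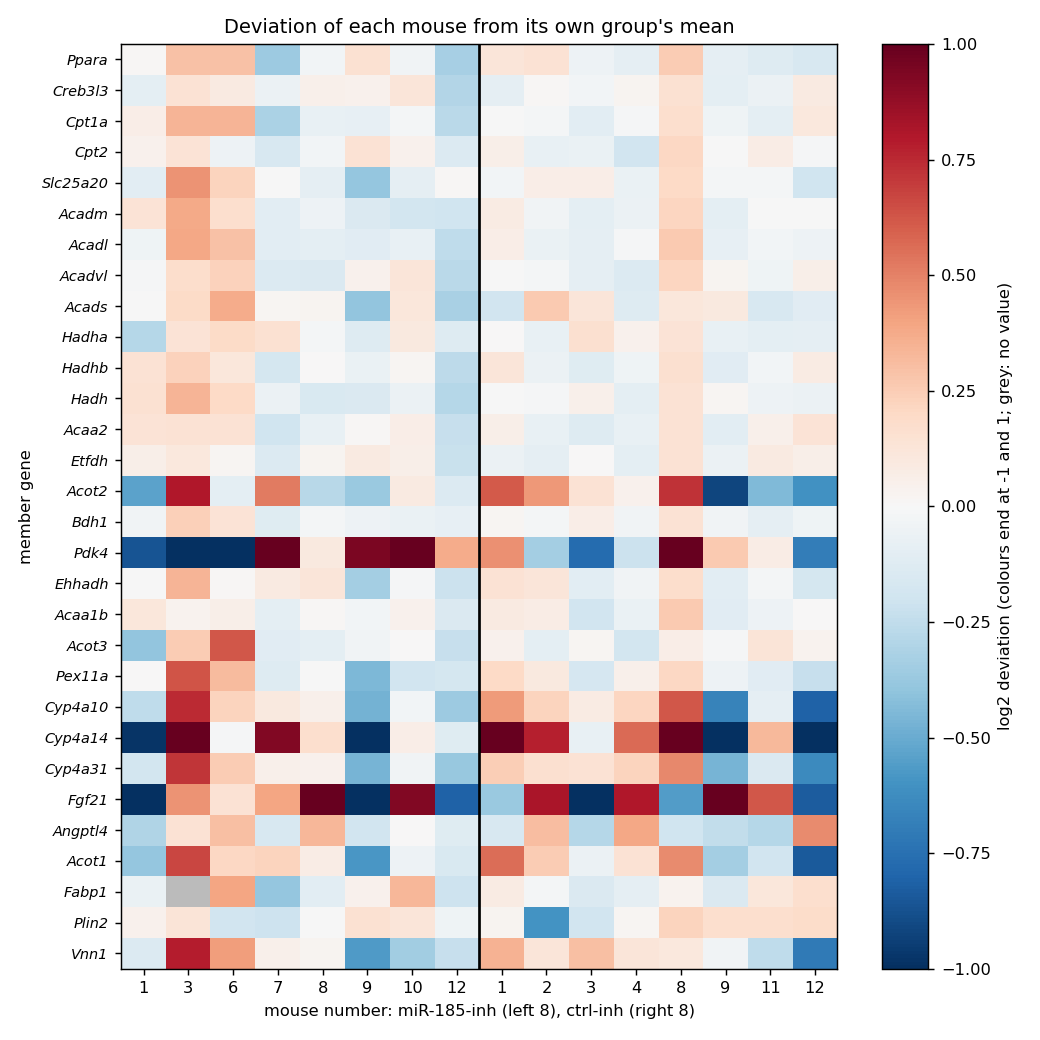
Deviation of each mouse from the mean of its own group, in log2 units, for the 30 genes (rows) in 8 miR-185-inh mice (left) and 8 ctrl-inh mice (right), red above and blue below the mean, grey where the Fabp1 spot was left out. MiR-185-inh mouse 3 and ctrl-inh mouse 8 are red in most rows, Pdk4 is dark blue in miR-185-inh mice 3 and 6, and the Cyp4a genes are blue in ctrl-inh mice 9 and 12.

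The comparison was also fitted without miR-185-inh mice 3 and 6, chosen after the values were seen. Mouse 3 was among the 2 highest of its group in 24 of the 30 genes and mouse 6 in 19. Leaving them out therefore lowers most miR-185-inh means by construction. Ctrl-inh mouse 8, the highest of its group in 22, was kept, so no conclusion on a lower level is drawn from this fit. In this fit the median difference of the 12 mitochondrial genes was -0.12, of the 4 peroxisomal genes -0.098 and of the 3 omega-hydroxylases -0.22. In all, 23 of the 30 genes lay below 0. None passed the threshold, where 4.71% of features did (1215 features), and the lowest limma adjusted p was 0.0606 for Acadl (difference -0.23). An unadjusted p under 0.05 was found for 7 of the 30 genes, beside 20.3% of features in the same fit.

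Further genes of the same pathways were counted from lists, beside 4.74% of all features past the threshold. At that share a list of this size can hold no call, and no list was tested as a set. Of 20 other genes of mitochondrial fatty acid oxidation 9 lay above and 11 below 0 with none past the threshold (median -0.021), and the 2 with the smallest p were Slc25a42, a mitochondrial carrier of coenzyme A (0.11, limma adjusted p = 0.345), and Acad10 (-0.089, limma adjusted p = 0.441). Of 28 other peroxisomal genes none passed (median -0.051). There Scp2, a peroxisomal thiolase and sterol carrier, ran from 5.23 to 5.54 in miR-185-inh and from 5.41 to 5.78 in ctrl-inh livers (difference -0.20, limma adjusted p = 0.121), and Hacl1, which shortens branched and hydroxylated chains, differed by -0.13 (limma adjusted p = 0.237). Of 29 other targets of PPAR alpha that were measured none passed, 15 lay above 0 and 14 below (median 0.0033). Aqp3, a glycerol channel, came nearest, from -4.52 to -3.55 in miR-185-inh and from -3.76 to -3.29 in ctrl-inh livers (difference -0.41, limma adjusted p = 0.0818), followed by the desaturase Fads1 (-0.18, limma adjusted p = 0.259).

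Among 21 partners and co-regulators of PPAR alpha and receptors of FGF21 none passed (median 0.019, 15 above 0), again beside 4.74% of all features. Rxra, the partner receptor RXR alpha, differed by 0.21 (limma adjusted p = 0.291) and the deacetylase Sirt1 by 0.14 (limma adjusted p = 0.363). Of 16 genes that follow fasting and feeding none passed (median -0.031), with Igfbp1, an insulin-repressed binding protein, at -0.54 (limma adjusted p = 0.154) and Trib3, a stress-induced pseudokinase, at 0.46 (limma adjusted p = 0.249). Igfbp1 was lowest in miR-185-inh mice 3, 1 and 6 (2.86, 3.19 and 3.59), the mice that were lowest in Pdk4. Of 14 measured clock genes none passed (median 0.17), and the clock output factors Hlf (0.52, limma adjusted p = 0.0684) and Tef (0.41, limma adjusted p = 0.303) had the smallest p.

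The features whose pattern over the 16 mice, with the group means removed, was most like that of Cyp4a14 were ranked among 25636 with all values. Acot5, a peroxisomal thioesterase, came first outside the 30 genes (r = 0.92, difference between groups -0.0070), and Cyp4a32 (r = 0.87) and Me1, the cytosolic malic enzyme (r = 0.85), were among the first 7, with Car11, Cep97, Mgst3 and Syt15. The most opposite were Myom3 (r = -0.93) and Acpp (r = -0.91). The features most like Acadl were Marveld1 (r = 0.93), Homer2 (r = 0.93), Tarsl2 (r = 0.92) and Ivns1abp (r = 0.91). None of these differed between the groups past the threshold.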

How the data were processed

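Total liver RNA (0.5 µg) was labelled with Cy3, 1 array per sample. Per the file headers, Feature Extraction 11.5.1.1 subtracted the background from each spot's intensity, and the submitters' processing notes name version 9.1. The authors' deposited table of log2 values equalled log2 of that intensity minus 1 constant per array (column medians -1.30 to -1.22). The sources used here do not say how they set it.

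Intensities were turned to log2 and set relative to the 75th percentile of the array's non-control spots. Outlier spots were left out, spots of a probe were averaged, probes well above background on at least 8 of 16 arrays were kept, and a gene was read by its brightest probe. Accessions named 26756 of 55681 probes (names only, since the array's coordinates are of another build). Groups were taken from the treatment label and compared with limma 3.58.1 in R 4.3.3, two-sided, after the fit was tested on simulated data, and with exact permutation tests. Alternatives covered background correction (normexp, offset 50), scaling, the authors' table, dim-probe filters, averaged probes, variance models, slide position, a replicate block and each mouse left out.

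The genes and lists were chosen with earlier results of these data known. All 30 genes are described, and from each related list the 2 genes with the smallest p. Mouse numbers shared by the groups did not pair the samples.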

Additional observations from a re-analysis of the deposited data

Results flagged for a closer look

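Each gene was examined in each group of 8 for a mouse far from the others by Dixon's test, and 1 of the 60 groups was flagged, where chance flags about 1 in 20. It was Acadl in ctrl-inh mouse 8, at a log2 relative signal of 3.02, whose nearest neighbour in the group was at 2.83, a gap of 0.54 of the group's range.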

How the results depend on the processing

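No gene of the 30 was called under any alternative but normexp (1 call, Bdh1, described above), including each mouse left out in turn. The count over all features, 1223, was 1853 with the percentile over detected probes, 474 in slide row 2 alone and 0 in row 1 alone (4617 at an unadjusted p under 0.05), and ran from 749 to 1587 with 1 mouse left out, the lowest without miR-185-inh mouse 7 (788 without mouse 6, 790 without ctrl-inh mouse 12). The mouse numbers 1, 3, 8, 9 and 12 occur in both groups, and deviations of same-numbered mice correlated with r of -0.13 to 0.11. With these numbers as a replicate block on those 10 arrays limma called 0 features (2602 at an unadjusted p under 0.05), and 0 without the block on the same arrays (2880). Calls higher in miR-185-inh livers made up 26.2% of calls, 48.1% with normexp, 45.8% with quantile normalization and 17.1% with the percentile over detected probes. The median of the 30 genes ran from -0.11 to -0.036 with 1 mouse left out, and was -0.029 with normexp, beside -0.024 over all features. After quantile normalization Cyp4a10 with Cyp4a14 (r = 0.91, exact adjusted p = 0.00714), Cyp4a14 with Ehhadh (r = 0.93, exact adjusted p = 0.00536) and Cpt1a with Pdk4 (r = -0.89, exact adjusted p = 0.00714) passed in miR-185-inh livers, and Cyp4a10 with Ppara (r = 0.83, exact adjusted p = 0.0428) in ctrl-inh livers. The cause of these changes was not tested.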
